A study of Mus musculus with 10 samples.

Results

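The cadherin and protocadherin genes are a superfamily of calcium-dependent adhesion molecules. They were taken from the deposited count table by symbol: names made of Cdh or Pcdh and a number, the genes of the Pcdha, Pcdhb and Pcdhg clusters, and Celsr1 to Celsr3. The rule found 94 genes among 52459. These were 23 Cdh genes, 3 Celsr genes, 11 protocadherins that lie outside the clusters, 13 Pcdha genes, 22 Pcdhb genes and 22 Pcdhg genes. Of the 94, 82 passed the filter on low counts and were tested, and 12 did not. Cdh16 had 0 counts in all 10 libraries, and the other untested genes had between 5 and 77 counts summed over all libraries.

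The libraries follow the differentiation of mouse embryonic stem cells toward neuromesodermal progenitors (NMPs), the axial progenitors of spinal cord and trunk mesoderm. All cells came from ES-Bruce4, a single C57BL/6 line described as wild type, which had been kept on inactivated mouse embryo fibroblasts and depleted of these feeders before plating. Every culture received bFgf at 10 ng/ml from day 0 and the GSK3 inhibitor CHIR99021 at 5 µM from day 2, in N2B27 medium made with or without vitamin A, and was split on day 3. The labels do not say which vitamin A formulation each culture had, nor whether day 2 cells were taken before CHIR99021 was added. Total RNA was collected on day 2 (group D2, labelled epiblast stem cell), day 3 (D3), day 6 (D6) and day 7 (D7), the last 3 labelled neuromesodermal progenitor. Another group, D7G, was collected on day 7 after 24 h with Gdf11 at 50 ng/ml, a TGF-beta family ligand that acts in the embryo at the change from trunk to tail. Each group had 2 libraries. The p-values rest on the spread between libraries of the same group, pooled over the 5 groups and with information shared across genes. The labels do not say that the 2 libraries of a group were separate cultures, so that spread may be technical.

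Classical cadherins bind the same cadherin on the neighbouring cell and are anchored to actin through catenins. E-cadherin holds epithelia together, N-cadherin marks neural and early mesodermal tissue, and an exchange of the former for the latter accompanies gastrulation. Type II cadherins are expressed in combinations that sort mesenchyme and neuron groups. Clustered protocadherins are chosen from tandem promoters and give neurons individual surface identities, non-clustered protocadherins act in somites and brain, and the Celsr proteins are the long cadherins of planar cell polarity.

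Library totals were 31078950 to 33418015 counts, so that a level of 1 in CPM, which scales counts to a common library size, stood for 31.1 to 33.4 reads, and the members held 0.106% to 0.159% of all counts. Epiblast markers, 6 genes including Pou5f1 and Fgf5, summed to 2379 to 2383 CPM in D2 and to 461 to 466 CPM in D3. The largest part in D2 was Dnmt3b, at 1470 to 1480 CPM, with Pou5f1 at 562 to 568 CPM. NMP markers, 10 genes including T, Cdx2 and Sox2, summed to 170 to 178 CPM in D2, 1190 to 1207 CPM in D3, 663 to 677 CPM in D6 and 444 to 448 CPM in D7. Most of the D2 sum was Sox2, at 159 to 167 CPM in D2 and 229 to 235 CPM in D7. T was at 0.856 to 0.982 CPM in D2 and 231 to 233 CPM in D3, and Cdx2 at 0.590 to 0.593 CPM and 154 CPM. In all that follows a change in bulk RNA does not tell a larger share of cells that express a gene apart from more RNA per cell. Levels are in CPM scaled by TMM (trimmed mean of M values), differences are log2 fold changes with their standard error (SE), and calls needed an adjusted p below 0.05 in edgeR's quasi-likelihood test, with Benjamini-Hochberg adjustment over 18818 genes.

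Most of the family changed at some point of the series. The test for any difference among the 5 groups called 77 of 82 tested members (93.9%), against 87.9% of all tested genes. Between D2 and D3, 29 members (35.4% of those tested) were called higher and 15 (18.3%) lower, set against 29.6% higher and 28.9% lower over all genes. Between D3 and D6, 35 (42.7%) were higher and 16 (19.5%) lower, where 32.4% of all genes were higher and 33.3% lower. From D6 to D7, 16 (19.5%) were higher and 6 (7.32%) lower, against a background of 20.5% and 15.6%. With Gdf11, D7G against D7, 46 members (56.1% of those tested) were higher and 4 (4.88%) lower, where 22.5% of all genes were higher and 18.2% lower. The median log2 fold change in that comparison was 0.60 over the 82 members and 0.02 over all genes. With Cdh12, which had no counts in D7, set at its bound, the members' median was 0.58. DESeq2 called 30 members higher with Gdf11 and 10 higher from D6 to D7, with 17.3% and 15.7% of all genes called higher by that tool.

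Among the type I cadherins, Cdh1 and Cdh3 lost most of their RNA by D6 while Cdh2 gained. E-cadherin, Cdh1, stood at 719 and 737 CPM in the D2 libraries, 437 and 472 CPM in D3, 116 and 132 CPM in D6, and 140 and 139 CPM in D7. Its libraries with Gdf11 held 238 and 192 CPM, both above the D7 libraries. Cdh1 fell from D2 to D3 (log2 fold change -0.68, SE 0.07, adjusted p 2.68e-08, edgeR) and from D3 to D6 (-1.88, SE 0.07, adjusted p 9.07e-15), and rose with Gdf11 (0.62, SE 0.07, adjusted p 5.56e-07). The D7G value was thus 1.54-fold the D7 value and still well under that of D2. The step from D6 to D7 was 0.17 (SE 0.07, adjusted p 0.0693 in edgeR) and became a call under some settings, such as 0.26 (adjusted p 0.0183) without D6 replicate 2, over an adjusted p range of 0.0183 to 0.496.

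N-cadherin, Cdh2, took the opposite course up to day 6. It rose from 35.9 and 34.9 CPM in D2 to 106 and 108 CPM in D3 and 280 and 257 CPM in D6. In D7 it stood at 220 and 212 CPM and in D7G at 160 and 178 CPM, with no overlap between any of these neighbouring groups. Both early rises were called (1.59, SE 0.06, and 1.33, SE 0.05, adjusted p 5.17e-15 and 5.79e-15), and so were the falls from D6 to D7 (-0.31, SE 0.05) and with Gdf11 (-0.36, SE 0.05, adjusted p 5.31e-06, edgeR). Set on the length of the annotated exons, Cdh2 was at 0.0283 and 0.0269 of the level of Cdh1 in D2, and at 1.37 and 1.11 of it in D6. The D7 libraries had ratios of 0.893 and 0.863 and the D7G libraries 0.381 and 0.524. Per kilobase, Cdh2 was therefore above Cdh1 in the 2 D6 libraries and in none of the others.

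P-cadherin, Cdh3, lies 46.1 kb from Cdh1 on chromosome 8 (mm10 106510891 to 106557297, plus strand, with Cdh1 at 106603351 to 106670246 on the same strand). It is an adhesion protein of basal epithelia and placenta. Cdh3 had 42.4 and 45.4 CPM in D2 and 41.0 and 44.7 CPM in D3, groups that overlapped, and 6.89 and 8.59 CPM in D6. D7 was at 8.41 and 9.39 CPM, and D7G was at 17.4 and 15.4 CPM. Unlike Cdh1 it was not called between D2 and D3 (-0.04, SE 0.07, adjusted p 0.702, edgeR), but it fell from D3 to D6 (-2.47, SE 0.09, adjusted p 7.49e-15) and rose with Gdf11 (0.88, SE 0.10, adjusted p 5.42e-07). The ratio of Cdh1 to Cdh3 in CPM was 16.2 to 17.0 in D2, 10.6 to 10.7 in D3 and 12.5 to 13.7 in D7G. The difference between the responses of the 2 neighbours was not tested.

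R-cadherin, Cdh4, a cadherin of retina, brain and kidney, moved little. Its libraries held 12.1 and 11.3 CPM in D2, 8.12 and 8.11 CPM in D3, 11.1 and 9.33 CPM in D6, 13.4 and 13.4 CPM in D7 and 17.1 and 20.7 CPM in D7G. Cdh4 fell into D3 (-0.53, SE 0.11, adjusted p 0.000303, edgeR) and rose with Gdf11 (0.50, SE 0.09, adjusted p 0.000252). The rises in between depended on a D6 library. From D3 to D6 it was 0.33 (adjusted p 0.0127) and 0.20 (adjusted p 0.191) without D6 replicate 1, over a range of 0.00348 to 0.191, and from D6 to D7 it was 0.39 (adjusted p 0.00561) and 0.26 (adjusted p 0.10) without D6 replicate 2, over a range of 0.00279 to 0.10. M-cadherin, Cdh15, a cadherin of muscle precursors, was at 1.44 and 1.71 CPM in D2 and at or below 0.345 CPM in every library from D6 on.

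**Figure D1:**
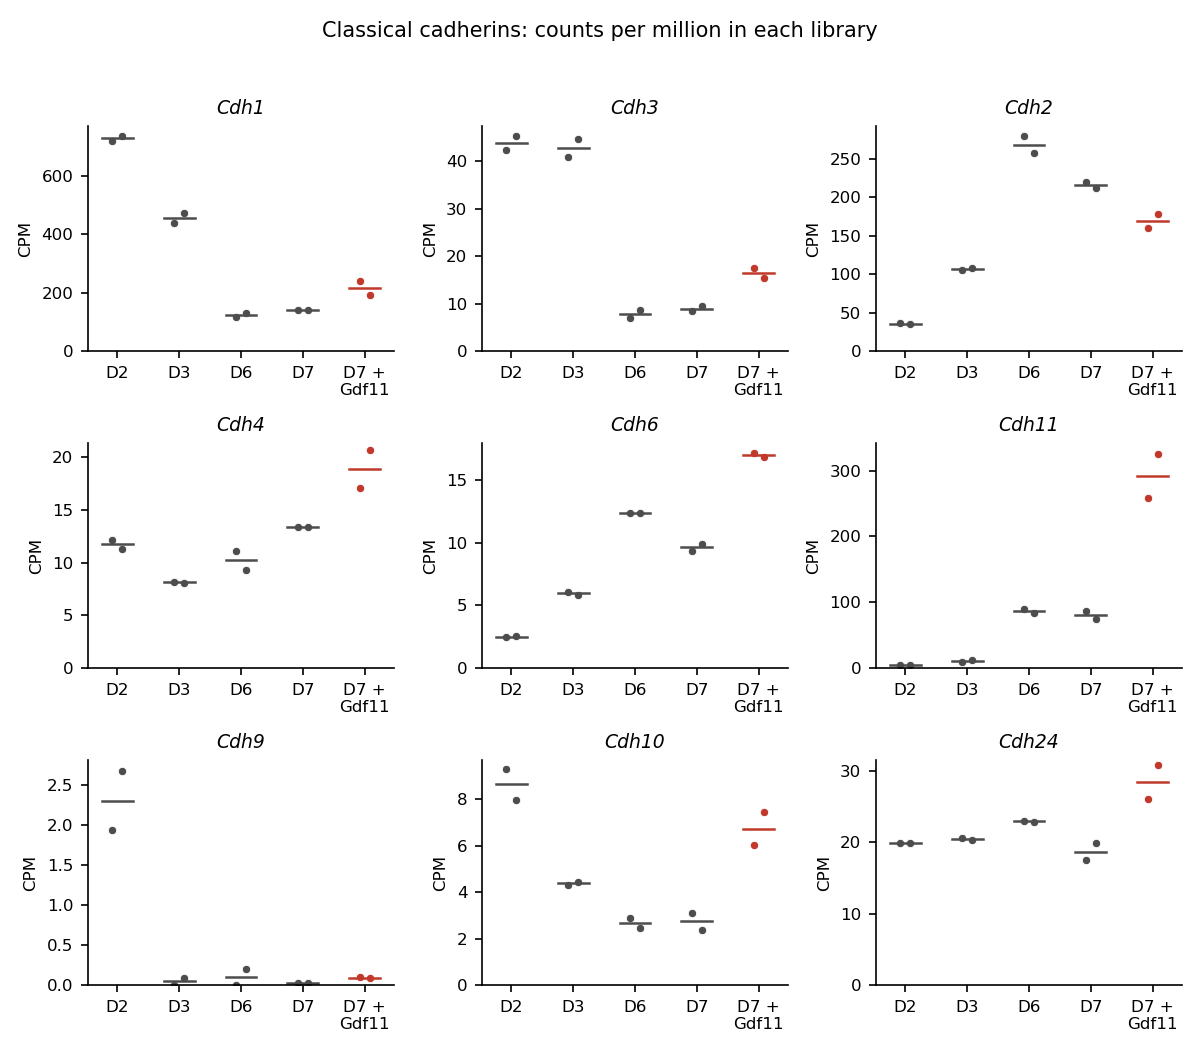
CPM (vertical axis, linear from 0) of 9 classical cadherins in each of the 10 libraries, by group (horizontal axis). Points are libraries and bars are the mean of the 2, with Gdf11 libraries in red. Cdh1 and Cdh3 drop by D6, Cdh2 peaks in D6 and Cdh11 stands at 259 and 325 CPM in D7G.

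Among the type II cadherins, Cdh11 showed the widest range upward. Cdh11, also called OB-cadherin, is a cadherin of mesenchyme and bone-forming cells. Its values were 4.13 and 4.45 CPM in D2, 9.68 and 11.5 CPM in D3, 89.6 and 83.8 CPM in D6, and 86.0 and 74.3 CPM in D7. In D7G they were 259 and 325 CPM, more than any untreated library. Cdh11 rose 2.47-fold into D3 (log2 1.30, SE 0.18, adjusted p 2.44e-06, edgeR), 8.18-fold from D3 to D6 (3.03, SE 0.11, adjusted p 4.14e-15) and 3.64-fold with Gdf11 (1.87, SE 0.08, adjusted p 4.12e-13). Per kilobase of exon its mean level went from 9.0 in D7 to 32.8 in D7G, above the 20.9 of Cdh2 there. From D6 to D7 it was not called (-0.11, SE 0.08, adjusted p 0.318, edgeR). Without D7G replicate 1 that step was -0.15 (adjusted p 0.0489), and without D7G replicate 2 it was -0.15 (adjusted p 0.0497), over a range of 0.0489 to 0.783.

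Fibroblast markers moved with Cdh11 in the Gdf11 comparison. Of 10 such markers 9 were tested, 7 were called higher and 0 lower, and their summed level was 394 to 419 CPM in D7 and 1184 to 1361 CPM in D7G. Col1a1 went from 25.9 and 28.7 CPM to 231 and 252 CPM and Prrx1 from 50.8 and 47.0 CPM to 193 and 220 CPM. Dcn stayed below 1 CPM in both groups and S100a4 was at 0 to 0.0602 CPM. In D2 and D3, when Cdh11 was low, the same list summed to 195 to 238 and 361 to 370 CPM, and in D6, when Cdh11 was at 89.6 and 83.8 CPM, to 271 to 286 CPM. The D6 sum joined opposite changes: from D3 to D6, 2 of the 9 tested markers were called higher and 7 lower. Col3a1 was at 27.1 to 27.9 CPM in D3 and at 166 to 180 CPM in D6, most of the D6 sum. Prrx1 was also higher in D6 than in D3, at 31.8 CPM in each D6 library. Col1a1 was at 95.5 to 101 CPM in D3 and at 7.31 to 9.04 CPM in D6. In D2 and D3 Dcn was at 4.36 to 8.61 CPM. The part of fibroblast or mesenchymal cells in the Cdh11 values was not tested.

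Cdh6, K-cadherin, which is found in kidney, neural tube and neural crest, followed Cdh11 at lower levels. The libraries held 2.49 and 2.54 CPM in D2, 6.04 and 5.86 CPM in D3, 12.4 and 12.4 CPM in D6, 9.34 and 9.94 CPM in D7 and 17.2 and 16.9 CPM in D7G, with no overlap between neighbouring groups. It rose with Gdf11 by 0.82 (SE 0.08, adjusted p 1.03e-07, edgeR), after a rise of 1.24 (SE 0.12) into D3, a rise of 1.05 (SE 0.09) into D6 and a fall of 0.36 (log2 fold change -0.36, SE 0.09) into D7. The authors deposited 2 count tables, and Cdh6 had 3039 counts over all libraries in the table used here and 8430 in the other, in which its exons span 2632 and 9024 bases. The second table gave 1.65, 1.2, -0.49 and 0.96 for the same 4 steps.

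Cdh10, a cadherin of brain and of the developing spinal cord, rose with Gdf11 from 3.11 and 2.38 CPM to 6.02 and 7.46 CPM (log2 fold change 1.29, SE 0.15, adjusted p 1.28e-06, edgeR). It had been at 9.33 and 7.97 CPM in D2, so its Gdf11 level lay between those of D3 (4.32 and 4.44 CPM) and D2. Cdh24 had 17.5 and 19.9 CPM in D7 and 26.0 and 30.8 CPM in D7G and rose by 0.60. Cdh22, a brain cadherin, rose from 2.75 and 3.34 CPM to 5.39 and 6.00 CPM, a log2 fold change of 0.90. Cdh7, whose chick counterpart marks migrating neural crest, was the only type II cadherin called lower with Gdf11, from 3.80 and 3.64 CPM to 2.32 and 2.33 CPM (-0.68). DESeq2 did not call Cdh7, and so called 0 of the type II genes lower. Of the 12 type II genes tested, 7 were higher (58.3%) and 1 was lower (8.33%) in that comparison, where 22.5% of all genes were higher and 18.2% lower.

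From D2 to D3, 4 of the 12 tested type II cadherins were called lower and 4 higher. That was 33.3% each way, near the 28.9% lower and 29.6% higher of all genes. Cdh9, a synaptic cadherin, had 1.93 and 2.67 CPM in D2 (140 counts over both libraries) and 0 and 0.0925 CPM in D3 (3 counts over both). The ratio of D3 to D2 was 0.0201, with an exact 95% counting interval of 0.00409 to 0.0598, and the gene stayed below 0.2 CPM in every later library. Cdh8, another synaptic cadherin, went from 1.08 and 1.02 CPM to 0.0919 and 0.123 CPM (log2 fold change -3.24, SE 0.41, adjusted p 8.90e-07, edgeR) and was at 0.909 and 0.715 CPM in D7G. Cdh20 moved the other way, from 0.688 and 0.560 CPM to 3.09 and 2.59 CPM (2.18, SE 0.23, adjusted p 9.06e-08). Cdh13, T-cadherin, which is held by a lipid anchor and has no cytoplasmic tail, rose from 0.426 and 0.264 CPM to 1.32 and 1.79 CPM (2.16, SE 0.31, adjusted p 5.54e-06, edgeR).

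The promoters of the genes with the largest called changes among classical and non-clustered members are printed to show what kind of start they have. They are the 250 bases before the RefSeq start (build GRCm38.p6), 5′ to 3′ on the gene's strand. Cdh9 (chr15:16728665-16728914, plus strand) and Cdh8 (chr8:99416472-99416721, minus strand) had the largest falls, and Pcdh7 (chr5:57717831-57718080, plus strand) the largest rise, all from D2 to D3. Capitals mark a match to any of the motifs searched on both strands: CACCTG (an E-box that Snail and Zeb repressors bind), CTTTGA (core letters of TCF/LEF sites) and TATAAA (which the general factor TBP binds).
Cdh9: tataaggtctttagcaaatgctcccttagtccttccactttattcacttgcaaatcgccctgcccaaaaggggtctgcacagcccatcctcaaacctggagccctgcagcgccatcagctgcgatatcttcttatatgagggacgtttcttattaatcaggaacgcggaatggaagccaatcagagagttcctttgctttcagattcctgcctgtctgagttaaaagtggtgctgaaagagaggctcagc
Cdh8: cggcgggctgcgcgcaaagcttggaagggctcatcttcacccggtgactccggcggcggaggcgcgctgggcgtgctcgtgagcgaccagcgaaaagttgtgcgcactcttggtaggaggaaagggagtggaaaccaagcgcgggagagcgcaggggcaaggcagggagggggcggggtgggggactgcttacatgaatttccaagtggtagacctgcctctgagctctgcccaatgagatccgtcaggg
Pcdh7: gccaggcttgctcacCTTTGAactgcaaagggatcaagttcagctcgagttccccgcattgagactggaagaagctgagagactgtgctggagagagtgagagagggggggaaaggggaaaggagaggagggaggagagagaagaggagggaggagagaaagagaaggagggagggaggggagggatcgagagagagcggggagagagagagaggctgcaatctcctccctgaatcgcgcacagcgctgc
The Pcdh7 window held 1 match, CTTTGA, which starts 235 bases before the start site, and the other windows held 0. CACCTG or its reverse complement occurs in 17.2% of 32851 promoter windows of the same length, CTTTGA in 13.8% and TATAAA in 12.4%. The Cdh8 window had 20 CpG dinucleotides and 64.4% GC, the Pcdh7 window 7 and 58.4%, and the Cdh9 window 6 and 48.0%, where the medians over all windows were 6 and 52.4%. Cdh11 would have been the fourth. The gene model that was counted starts elsewhere for 2 of these genes. Its Cdh9 starts at 16778101, downstream of the whole Cdh9 window. Its Pcdh7 starts at 57717967, so the Pcdh7 window runs past that start. Its Cdh8 ends at 99416471 on the minus strand, next to the Cdh8 window. The counts do not show which start site was in use.

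The non-clustered protocadherins shifted from Pcdh1 to a set led by Pcdh18, Pcdh7 and Pcdh19. Pcdh1, an epithelial protocadherin, had 104 and 98.9 CPM in D2, 45.0 and 45.0 CPM in D3 and 7.89 and 9.17 CPM in D6. It fell by 1.18 on the log2 scale (SE 0.07, adjusted p 1.05e-11, edgeR) and then by 2.40 (SE 0.09, adjusted p 8.48e-15). In D7 and D7G it was at 9.13 and 10.6 CPM and at 13.01 and 10.3 CPM, groups that overlapped (0.24, SE 0.10, adjusted p 0.0697), but 0.39 with adjusted p 0.00623 without D7G replicate 2, over a range of 0.00623 to 0.832. Of the 9 tested non-clustered genes, Pcdh1 alone was not called higher with Gdf11.

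Pcdh7, also called BH-protocadherin, is expressed in brain and heart. It had 1.38 and 1.55 CPM in D2, 12.7 and 12.1 CPM in D3, 38.1 and 36.4 CPM in D6, 26.2 and 23.4 CPM in D7 and 37.5 and 44.8 CPM in D7G. The rise into D3 was 8.47-fold (log2 3.08, SE 0.15, adjusted p 9.00e-13, edgeR). A further rise of 1.59 (SE 0.09) into D6 was followed by a fall of 0.59 (log2 fold change -0.59, SE 0.08) into D7 and a rise of 0.73 (SE 0.08, adjusted p 2.38e-07) with Gdf11. Pcdh19, whose human counterpart is mutated in an epilepsy of girls, had the same order of groups from D3 on, with 13.2 and 11.4 CPM in D3, 29.8 and 27.6 CPM in D6, 23.5 and 21.8 CPM in D7 and 34.2 and 39.8 CPM in D7G (0.71 with Gdf11, SE 0.08, adjusted p 4.52e-07). Pcdh18, found in mesoderm and neural tissue, rose from 27.7 and 27.7 CPM in D3 to 61.5 and 58.3 CPM in D6 (1.11, SE 0.07) and from 66.4 and 61.3 CPM in D7 to 79.9 and 94.6 CPM in D7G (0.45, SE 0.06, adjusted p 8.32e-06, edgeR).

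Pcdh8 is the mouse paraxial protocadherin, a gene of presomitic mesoderm and forming somite borders. Its values were 1.44 and 1.05 CPM in D2, 1.26 and 1.33 CPM in D3, 7.24 and 6.71 CPM in D6, 13.1 and 14.2 CPM in D7 and 20.7 and 20.7 CPM in D7G. It rose by 2.43 (SE 0.15) into D6 and by 0.97 (SE 0.10) into D7. On day 7 it was higher with Gdf11 than without, by 0.60 (SE 0.08, adjusted p 8.71e-06, edgeR). Markers of somites and presomitic mesoderm, 10 genes, did not share that order. Their summed level was 115 to 141 CPM in D6, 103 to 106 CPM in D7 and 94.6 to 98.4 CPM in D7G, and with Gdf11 2 of the 9 tested were called higher, Pax3 and Tcf15, and 2 lower, Meox1 and Foxc2.

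Pcdh9 had the largest called Gdf11 rise among non-clustered genes. This brain protocadherin stood at 0.393 to 0.904 CPM in all libraries of D2, D3 and D6, at 1.44 and 2.02 CPM in D7 and at 8.94 and 10.6 CPM in D7G. The Gdf11 change was 5.64-fold (log2 2.50, SE 0.17, adjusted p 3.42e-10, edgeR). Pcdh10, Pcdh17 and Pcdh20, all of low level, also rose: Pcdh10 from 1.71 and 1.48 CPM to 3.17 and 3.61 CPM (1.09, SE 0.19), Pcdh17 from 1.41 and 1.26 CPM to 2.85 and 3.42 CPM (1.23, SE 0.20), and Pcdh20 from 0.329 and 0.361 CPM to 1.29 and 1.18 CPM (1.83, SE 0.32, adjusted p 0.00013, edgeR). The brain is the best known site of all 4, and neuron markers moved in the same comparison: 5 of 10 were called higher and 0 lower, with summed levels of 159 to 162 CPM in D7 and 282 to 289 CPM in D7G. Tubb3 alone was at 56.9 to 60.6 CPM in D7 and 122 to 136 CPM in D7G, while Neurog2 and Nhlh1 overlapped between these groups. In D2 those neuron markers summed to 245 to 251 CPM while Pcdh9 was at 0.393 and 0.461 CPM. Stmn2 (97.6 to 100 CPM) and Tubb3 (80.3 to 81.5 CPM) led that D2 sum, and Neurog2 was at 0.0655 to 0.198 CPM. The part of neurons in the rise was not tested.

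**Figure D2:**
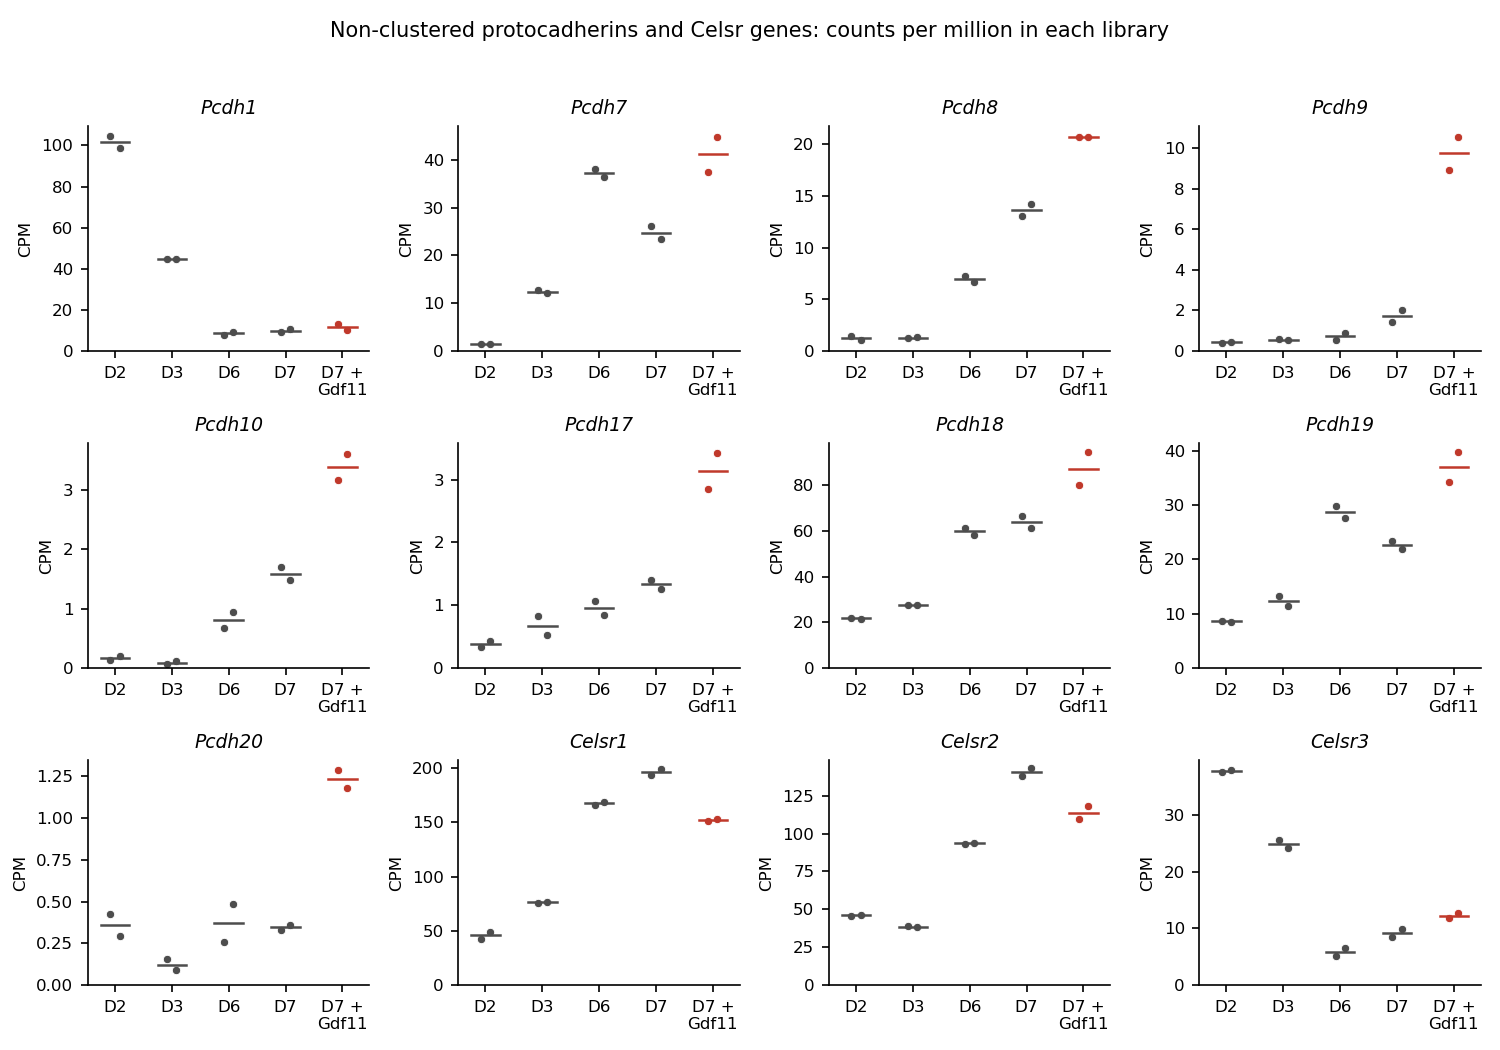
CPM (vertical axis, linear from 0, scaled per gene) of the 9 tested non-clustered protocadherins and the 3 Celsr genes in each library, by group (horizontal axis). Points are libraries and bars are means of 2, with Gdf11 libraries in red. Pcdh9 jumps in D7G to 8.94 and 10.6 CPM, while Celsr1 and Celsr2 are highest in D7.

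Of the 3 Celsr genes, 2 were called lower with Gdf11 and 1 higher, where 18.2% of all genes were lower and 22.5% higher. Celsr1, which orients epithelia such as neural plate and skin, climbed from 42.8 and 48.6 CPM in D2 through 76.1 and 76.6 CPM in D3 and 166 and 169 CPM in D6 to 194 and 199 CPM in D7. Celsr2, which acts in neural cilia and neuron migration, had 45.9 and 46.3 CPM in D2, 38.8 and 38.2 CPM in D3, 93.1 and 94.0 CPM in D6 and 138 and 143 CPM in D7. With Gdf11 Celsr1 stood at 151 and 153 CPM and Celsr2 at 110 and 118 CPM, and both fell (-0.37, SE 0.04, and -0.31, SE 0.04, adjusted p 8.84e-07 and 7.36e-06, edgeR). The genes called lower with Gdf11 were thus Cdh2, Cdh7, Celsr1 and Celsr2. Celsr3, needed for axon tracts, fell up to D6. It dropped from 37.7 and 38.1 CPM in D2 to 25.6 and 24.2 CPM in D3 and 5.09 and 6.62 CPM in D6 (-2.09, SE 0.10, adjusted p 3.33e-13), and stood at 8.47 and 9.88 CPM in D7 and 11.9 and 12.7 CPM in D7G. Its Gdf11 rise of 0.42 (SE 0.10, adjusted p 0.00228) was 0.29 (adjusted p 0.0668) without D7 replicate 1, over a range of 0.000724 to 0.0668.

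Counts of the clustered genes need care. The Pcdha genes share their last exons, as do the Pcdhg genes, and each Pcdhb gene is a separate unit with its own end. How reads on shared exons or on overlapping genes of the other strand were counted is not given in the sources used here. The deposited tables hold counts within 1.5-fold of each other for 83 members and no counts of Cdh16, and Cdh6, Pcdha4, Pcdha8 and Pcdhb13 were higher in the second. Lower in the second were 6 clustered genes (Pcdha11, Pcdhb12, Pcdhga10, Pcdhga11, Pcdhgb7 and Pcdhgc3). Pcdhga10 had 748 counts in the table used here and 0 in the second, and none of its 4732 exonic bases is free of other genes when strand is ignored, against 2613 on its own strand.

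The summed level of the Pcdhb cluster was higher on each later day, and on day 7 it was higher with Gdf11 than without. Its 22 genes lie in the order of their numbers on 1 strand, and their summed level was 5.04 and 5.37 CPM in D2, 10.6 and 9.59 CPM in D3, 43.4 and 41.8 CPM in D6, 53.5 and 53.1 CPM in D7 and 84.9 and 93.1 CPM in D7G. The sum was thus 4.21-fold higher in D6 than in D3 and 1.67-fold higher in D7G than in D7, and no 2 groups overlapped. Of 22 genes 21 had their highest group mean in D7G. The exception, Pcdhb1, had 0 to 3 counts in any library. Genes with at least 10 counts numbered 4 to 5 in the D2 libraries, 15 to 16 in D6 and 21 in each D7G library.

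In each of the 4 comparisons 0 Pcdhb genes were called lower by edgeR with TMM or by DESeq2, and 1, Pcdhb2 from D3 to D6, was lower at an unadjusted p under 0.05. Pcdhb2 was called lower in that step when edgeR was scaled by library totals or upper-quartile factors, and Pcdhb8 was called lower from D2 to D3 without D3 replicate 1. Of the 20 tested, 7 were higher in D3 than in D2, 16 in D6 than in D3, 4 in D7 than in D6 and 18 in D7G than in D7. These were 35%, 80%, 20% and 90% of the 20, where 29.6%, 32.4%, 20.5% and 22.5% of all genes were called higher. The shares from D2 to D3 and from D6 to D7 were thus near those of all genes. Pcdhb13, called higher in D6 than in D3, changed sign in the second count table. The 2 tested genes not called with Gdf11 were Pcdhb10 and Pcdhb15, with log2 fold changes of 0.76 and 0.77. Pcdhb15 was called higher with the replicate number as a block, with a filter of 1 CPM, and without D2 replicate 1, D2 replicate 2 or D7 replicate 1. The median of the 20 with Gdf11 was 0.86, where all genes had 0.02, and the median from D3 to D6 was 2.54, or 2.38 with Pcdhb9 at its bound. DESeq2 called 10 of the 20 higher with Gdf11, with a median of 0.85, and called 6 of 20 from D2 to D3, 14 of 20 from D3 to D6 and 1 of 20 from D6 to D7.

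Pcdhb22, the last gene of the cluster, led in counts throughout, with 1.41 and 1.81 CPM in D2, 3.58 and 3.55 CPM in D3, 10.3 and 9.94 CPM in D6, 10.4 and 8.97 CPM in D7 and 12.6 and 14.6 CPM in D7G. It rose by 1.15 (SE 0.18), 1.51 (SE 0.13) and, with Gdf11, 0.49 (SE 0.10, adjusted p 0.000633, edgeR), the smallest Gdf11 change among the tested Pcdhb genes. Pcdhb16 and Pcdhb17 made the largest called steps between D3 and D6 among genes of at least 1 CPM. Pcdhb16 went from 0.306 and 0.679 CPM to 4.86 and 5.07 CPM, a 10.0-fold rise (log2 3.32, SE 0.23, adjusted p 9.16e-11). Pcdhb17 went from 0.613 and 0.401 CPM to 4.83 and 4.26 CPM (3.15, SE 0.21, adjusted p 6.86e-11, edgeR). Pcdhb18 to Pcdhb21 rose by 2.28 to 2.79 in the same step.

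The 7 genes from Pcdhb16 to Pcdhb22, a set drawn after their values were seen, held 54.9% of the cluster's CPM in D2, 82.3% in D6, 76.5% in D7 and 71.9% in D7G. Per kilobase of own exon they spanned 0.652 to 1.65 CPM in D6, where the other 15 genes spanned 0.0187 to 0.310 CPM, with no overlap. In D7G the spans were 1.23 to 2.21 and 0.00601 to 1.52 CPM, and they overlapped. The highest of the other 15 in D7G was Pcdhb11, which had 1.29 and 1.45 CPM in D6, 3.26 and 3.07 CPM in D7 and 6.27 and 7.12 CPM in D7G. Pcdhb11 rose by 1.21 (SE 0.21) into D7 and by 1.08 (SE 0.16, adjusted p 1.33e-05, edgeR) with Gdf11.

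**Figure D3:**
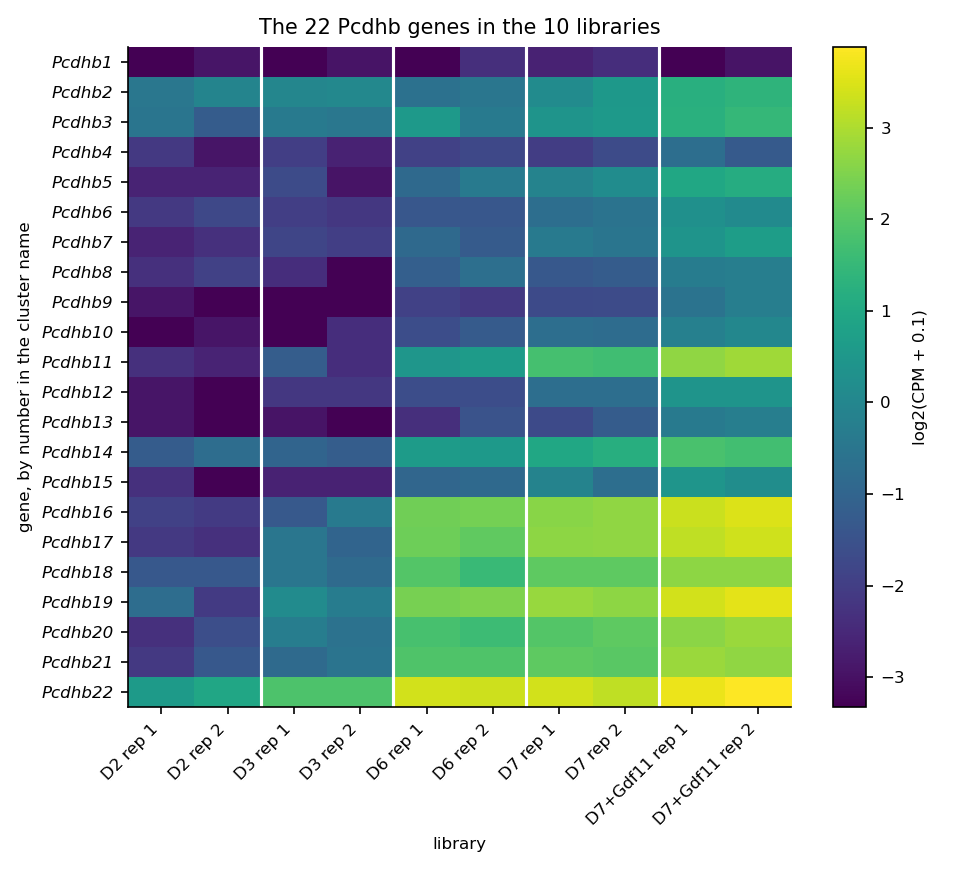
Level of each of the 22 Pcdhb genes (rows, by number) in each of the 10 libraries (columns, white lines between groups), coloured by log2 of CPM plus 0.1. Pcdhb16 to Pcdhb22 turn bright in D6, the genes above them brighten in D7 and D7G, and Pcdhb1 stays dark.

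Several Pcdhb genes of lower level rose by more than Pcdhb22 did with Gdf11. Pcdhb2 went from 1.02 and 1.32 CPM in D7 to 2.23 and 2.49 CPM in D7G (log2 fold change 1.01, SE 0.21, adjusted p 0.000661, edgeR), Pcdhb5 from 0.838 and 1.02 CPM to 1.85 and 2.11 CPM (1.09, SE 0.26), Pcdhb7 from 0.688 and 0.602 CPM to 1.22 and 1.52 CPM (1.09, SE 0.26) and Pcdhb12 from 0.509 and 0.512 CPM to 1.22 and 1.21 CPM (1.25, SE 0.28). Groups that do not overlap were a condition for naming these genes, so their lack of overlap is no further evidence. In DESeq2 the adjusted p was 0.0565 for Pcdhb5, 0.0972 for Pcdhb7 and 0.0833 for Pcdhb12, and over all alternatives the ranges were 0.00149 to 0.0565, 0.00193 to 0.0972 and 0.000977 to 0.0833. Pcdhb9, the called Pcdhb gene with the largest Gdf11 change (1.62, SE 0.41, adjusted p 0.0037), was at 0.209 and 0.211 CPM in D7 and 0.564 and 0.746 CPM in D7G, and missed the threshold without D7G replicate 2 (1.39, adjusted p 0.0529, the top of a range from 0.00375 over the settings that gave an adjusted p). DESeq2 gave Pcdhb9 no adjusted p and did not call it, and a filter of 1 CPM left it out. Its D3 libraries had 0 counts, so D6, with 9 counts, was at least 3.15-fold higher against a floor of 3 counts over the group. The D3 call of Pcdhb12, on 8 counts against 1 in D2 (ratio 7.49, exact 95% counting interval 1.00 to 332), was lost without D2 replicate 2 (adjusted p 0.219), D3 replicate 1 (0.0785) or D3 replicate 2 (0.0799), over a range of 0.0101 to 0.219.

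The Pcdha cluster stayed low and did not follow Pcdhb. Its summed level was 4.36 and 4.45 CPM in D2, 6.22 and 5.74 CPM in D3, 4.09 and 3.91 CPM in D6, 6.16 and 6.68 CPM in D7 and 7.96 and 8.77 CPM in D7G. D6 was the lowest of the 5 groups, where the Pcdhb sum had its largest step. Pcdha12 went from 0.720 and 0.428 CPM in D2 to 1.65 and 1.73 CPM in D3 and back to 0.258 and 0.323 CPM in D6 (1.55, SE 0.27, and -2.53, SE 0.31, adjusted p 4.66e-05 and 4.68e-07, edgeR). Pcdhac2, a C-type gene at the end of the cluster that neurons use regardless of choice among the others, did the opposite, with 1.90 and 1.78 CPM in D2, 0.705 and 0.648 CPM in D3 and 1.13 and 1.55 CPM in D6. Its fall into D3 was -1.44 (SE 0.24, adjusted p 3.79e-05), and its rise into D6 of 0.98 (adjusted p 0.00241) was 0.74 (adjusted p 0.0511) without D6 replicate 2, over a range of 0.00155 to 0.0511. With Gdf11, Pcdha3, Pcdha9 and Pcdha11 were called higher and none lower among 9 tested, where 22.5% of all genes were higher and 18.2% lower. DESeq2 called 0 of the 9 higher, leaving out 1 library gave 0 to 3, with 0 without D7 replicate 2 and 1 without D2 replicate 1, D7 replicate 1 or either D7G library, and Pcdha9 (0.96, adjusted p 0.0472) lost its call on leaving out any of the D2, D3, D7 or D7G libraries, with an adjusted p of 0.0429 to 0.281 over all alternatives.

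Pcdhgc3, another C-type gene, which is expressed widely outside the nervous system, had the most counts of the Pcdhg cluster. Pcdhgc3 alone gave 45.0% and 45.7% of the cluster's counts in the D2 libraries and 59.2% to 62.3% in all others. In the second count table its share was 25.8% and 28.5% in D2 and 40.2% to 43.7% in all others. It had 35.0 and 36.8 CPM in D2, 72.5 and 77.2 CPM in D3, 81.3 and 74.5 CPM in D6, 83.2 and 83.4 CPM in D7 and 90.7 and 98.7 CPM in D7G. The rise into D3 was 2.08-fold (log2 1.06, SE 0.06, adjusted p 3.71e-12, edgeR), and the second table, with 9514 counts in place of 23507, gave 1.05. The Gdf11 rise of 0.19 (SE 0.05, adjusted p 0.0068) was 0.16 without either D7 library (adjusted p 0.0593 and 0.0645) and 0.11 without D7G replicate 2 (adjusted p 0.17), over a range of 0.00387 to 0.17. Without Pcdhgc3 the other 21 genes summed to 42.7 and 43.7 CPM in D2, 47.7 and 46.8 CPM in D3, 55.5 and 51.0 CPM in D6, 51.8 and 52.2 CPM in D7 and 62.5 and 67.4 CPM in D7G.

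From D3 to D6 18.2% of the 22 tested Pcdhg genes were called in each direction, fewer than the 32.4% and 33.3% of all genes. The 4 called each way were higher (Pcdhga3, Pcdhga5, Pcdhga6 and Pcdhga7) and lower (Pcdhga9, Pcdhga12, Pcdhgb2 and Pcdhgb5). Pcdhga3 rose from 3.28 and 3.08 CPM to 7.63 and 6.71 CPM and Pcdhga7 from 4.93 and 5.18 CPM to 9.30 and 9.23 CPM. Pcdhga12 went from 2.45 and 2.097 CPM to 1.06 and 0.646 CPM (-1.41, SE 0.26, adjusted p 6.81e-05, edgeR). With Gdf11 6 were higher (27.3%) and 0 lower, where 22.5% of all genes were higher and 18.2% lower. Pcdhga9 had the largest change, from 0.598 and 0.813 CPM to 1.51 and 1.46 CPM (1.07, SE 0.25, adjusted p 0.00181, edgeR). DESeq2 called 3 of the 22 higher, and edgeR called 3 without D7 replicate 2 and 2 without D7G replicate 2. Pcdhgc4 rose into D3 from 0.9497 and 0.856 CPM to 2.27 and 2.22 CPM (1.31, SE 0.22, adjusted p 4.11e-05).

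**Figure D4:**
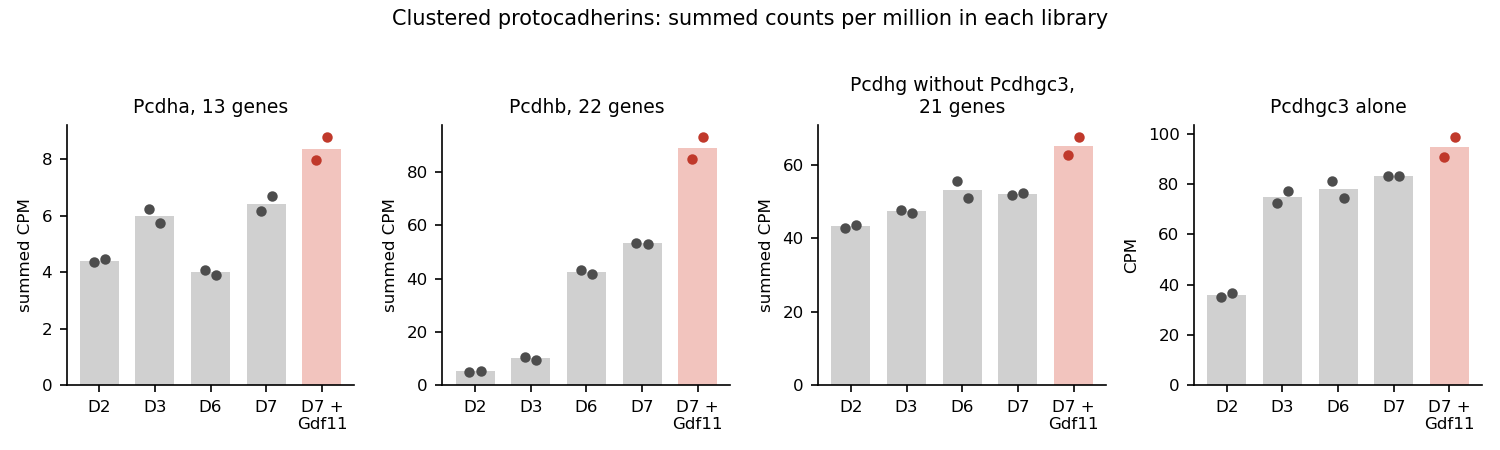
Summed CPM of the Pcdha genes, the Pcdhb genes and the Pcdhg genes without Pcdhgc3, and the level of Pcdhgc3 alone (vertical axes, linear from 0), by group (horizontal axes). Bars are means of 2 libraries and points the libraries, with Gdf11 in red. Pcdhb grows from about 5.21 CPM in D2 to 53.3 CPM in D7 and is at 89.0 CPM in D7G. Pcdha dips in D6 and Pcdhgc3 steps up between D2 and D3.

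From D6 to D7 without Gdf11 the changes were smaller. Among genes with at least 1 CPM in a group, the largest called rises were those of Pcdh9 (1.25, SE 0.27), Pcdhb11, Cdh7 (1.09, SE 0.17), Pcdhb2, Pcdh10 and Pcdh8. All 3 Celsr genes were called higher, where 20.5% of all genes were. Celsr1 rose by 0.23 (SE 0.04), Celsr2 by 0.59 (SE 0.04) and Celsr3 by 0.65 (SE 0.11, adjusted p 0.00019, edgeR). Called lower were Cdh2, Cdh6, Cdh24, Pcdh7, Pcdh19 and Pcdhgc4. Several of these calls rested on a D6 or D7 library or on the tool. DESeq2 did not call Cdh22, Pcdha3, Pcdha9, Pcdhb2, Pcdhb12, Pcdhb17 or Pcdhgc4. Cdh24 lost its call without D7 replicate 1, as Cdh4 did without D6 replicate 2. Pcdha3 and Pcdhb12, called in edgeR at under 1 CPM, lost theirs without D6 replicate 2 or D7 replicate 1, and Pcdhb12 also without D6 replicate 1 or D7 replicate 2. Without D6 replicate 1 the adjusted p was 0.185 for Cdh22, 0.068 for Pcdh10, 0.0609 for Pcdhb2, 0.0577 for Pcdhgc4 and 0.216 for Pcdha9. Without D7 replicate 2 it was 0.266 for Cdh22, 0.109 for Pcdhb2, 0.0657 for Pcdhb17 and 0.143 for Pcdha9, without D7 replicate 1 it was 0.127 for Pcdhgc4 and 0.0503 for Pcdh10, and without D6 replicate 2 it was 0.0842 for Pcdhb17. The lowest values over the alternatives were 0.0187 for Cdh22, 0.00353 for Pcdh10, 0.0066 for Pcdhb2, 0.00691 for Pcdhgc4, 0.00674 for Pcdha9 and 0.00524 for Pcdhb17.

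The plot of fold changes by family sets the Gdf11 comparison side by side. Higher were 10 of 19 Cdh genes, 1 of 3 Celsr genes, 8 of 9 non-clustered protocadherins, 3 of 9 Pcdha genes, 18 of 20 Pcdhb genes and 6 of 22 Pcdhg genes. The shares were 52.6%, 33.3%, 88.9%, 33.3%, 90% and 27.3%, where 22.5% of all genes were called higher. The family medians were 0.60, -0.31, 0.73, 0.59, 0.86 and 0.35 in that order, the first of them 0.50 with Cdh12 at its bound. Differences between families were not tested. D7G replicate 2 had more member counts than D7G replicate 1, 0.159% against 0.149% of the library, and each exceeded the 0.119% of both D7 libraries.

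**Figure D5:**
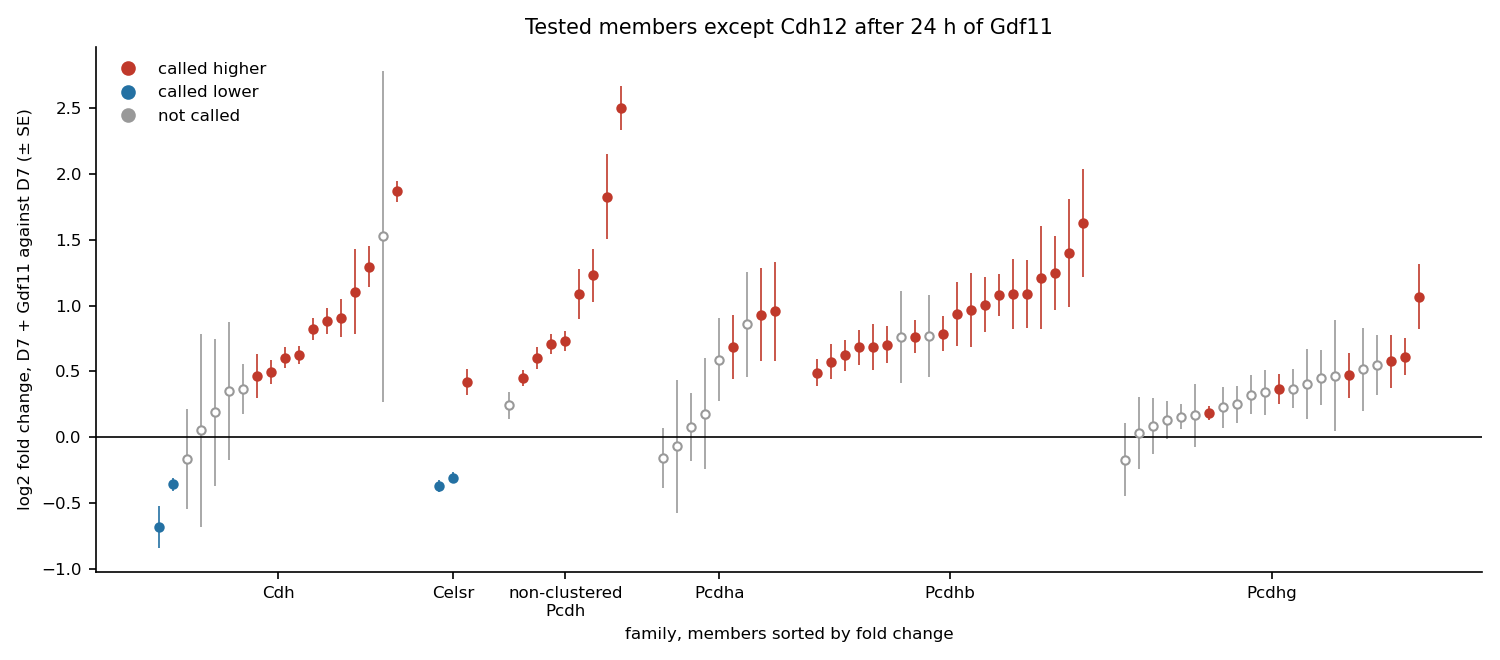
Log2 fold change of D7G against D7 (vertical axis) with its standard error (bars) for 81 of the 82 tested members, grouped by family and sorted by value (horizontal axis). Cdh12, which had no counts in D7, is left out. Red is called higher, blue called lower and open grey not called. All Pcdhb genes lie above 0, and the blue points are Cdh2, Cdh7, Celsr1 and Celsr2.

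Genes that work with cadherins were counted in the same way. Over all genes, 29.6% were called higher and 28.9% lower into D3, and 32.4% and 33.3% into D6. With Gdf11 the shares were 22.5% and 18.2%. Of the catenins and adherens junction partners, 15 of 16 were tested. From D3 to D6 3 were higher and 9 lower (median -0.24), and with Gdf11 6 were higher and 6 lower (median 0.05). Jup, plakoglobin, which links both junction types, fell by 1.53 into D6 and rose by 0.96 with Gdf11, and the 16 genes summed to 3195 to 3234 CPM in D2 and 2823 to 2835 CPM in D6. Of the 6 tested desmosomal genes, 5 rose into D3 and all 6 fell into D6, among them Dsc3, Pkp3 and Dsc2, and 4 rose with Gdf11, led by Pkp3 (0.58) and Dsp (0.53).

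Repressors of Cdh1 transcription, a list of 8 factors, were called higher in 5 of 8 cases into D3, 7 of 8 into D6 and 5 of 8 with Gdf11, and 0 were called lower in these steps. Twist1 rose from 5.36 and 5.24 CPM in D3 to a mean of 38.4 CPM in D6 and from 42.9 and 41.4 CPM in D7 to 78.3 and 97.8 CPM in D7G. Snai1 had 5.83 and 5.81 CPM in D7 and 12.8 and 15.0 CPM in D7G (1.25). Cdh1 and these repressors were thus called higher in the same comparison, D7G against D7. Zeb1, a further repressor of the list chosen after its values were seen, was at 66.8 and 65.4 CPM in D7 and 59.7 and 67.3 CPM in D7G, groups that overlapped.

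Planar polarity partners of Celsr, 16 genes, were called higher in 12 and lower in 3 cases into D3 (median 0.67), led by Wnt5a (3.09), Wnt11 (1.68) and Ptk7 (1.47). With Gdf11 7 were higher, Wnt5a (1.13) and Wnt11 (0.79) first, and 4 lower (median 0.16). Among 14 tested atypical cadherins outside the naming rule, 6 were called higher and 6 lower into D6 (median -0.016). Fat4 and Dchs1, a receptor and ligand pair of tissue polarity, rose by 4.10 and 2.65 in that step. Into D3 6 were higher and 2 lower. Pcdh11x, a protocadherin on the X chromosome whose symbol ends in a letter, rose by 3.91 into D3. With Gdf11 6 of the 14 were higher and 4 lower (median 0.19). Regulators of the clustered promoters, 15 genes for cohesin, CTCF and DNA methylation, were called lower in 10 and higher in 1 case into D3 (median -0.34). The de novo methyltransferase Dnmt3b fell by 3.24, from a mean of 1475 to 156 CPM, and Dnmt3a by 1.81. Between D3 and D6, 10 of the 15 were higher and 4 lower (median 0.26), where 32.4% of all genes were higher and 33.3% lower. Dnmt3b was at 156 CPM in each D3 library and at 75.7 to 80.5 CPM in D6. A link between these regulators and the Pcdhb changes was not tested. Of 11 cadherin-cleaving enzymes, 5 were higher and 1 lower with Gdf11, and the matrix proteases Mmp9 (5.00), Mmp2 (1.88) and Mmp14 (1.38) had the largest changes.

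Markers of other cell types differed between D7 and D7G as well. Neural crest markers, 8 genes, summed to 48.1 to 50.7 CPM in D7 and 108 CPM in each D7G library, and 4 were called higher and 0 lower. Endoderm markers, 10 genes, summed to 205 to 209 and 273 to 333 CPM, with 7 higher and 0 lower. Endothelial and blood markers, 10 genes of which 8 were tested, summed to 31.9 to 33.4 and 31.9 to 40.4 CPM, with 0 called in either direction by edgeR and 1, Pecam1, at an unadjusted p under 0.05. Cdh5, the defining cadherin of endothelium, was at 0.389 and 0.452 CPM in D7 and 0.408 and 0.342 CPM in D7G. The part of these cell types in the member changes was not tested.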

How the data were processed

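RNA was measured in 10 libraries, 2 per group. The authors deposited 2 tables of raw counts per gene and a table with FDR (adjusted p-value), log2 fold change and CPM values, of which the first count table was analysed here. HISAT2 2.1.0, STAR, featureCounts 1.6.3, limma and mm10 are named in the submitters' processing notes, with no roles. Strand use and counting options are not given in the sources used here.

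The deposited counts were fitted with edgeR 4.0.16 (R 4.3.3) in 1 quasi-likelihood model of 5 groups, with TMM factors, filterByExpr and Benjamini-Hochberg adjustment over 18818 genes. CPM values were computed with TMM-scaled library sizes, and levels per kilobase used the deposited gene model's exons. The fit was tested on simulated data. Alternatives were DESeq2 1.42.0, limma-voom 3.58.1, other scalings and filters, the second count table, a replicate block, the compared groups alone and leaving out each library.

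The members and gene lists were chosen with earlier results of these data known. Named in each comparison were 14 set genes, up to 12 called members with the largest change (groups that do not overlap, 1 CPM or more in either), and per cluster the gene of highest level and that of largest called change. From each list up to 3 called genes with the largest change were named. Other genes are named where a count was small, or were chosen after their values were seen. Counting intervals cover counting error only.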

Additional observations from a re-analysis of the deposited data

How the results depend on the processing

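DESeq2 called 10 members higher from D6 to D7 and 30 with Gdf11, against 16 and 46 in edgeR. The other counts over all members stayed within 1.5 times of their value in edgeR, but several counts by family did not. DESeq2 called 10 Pcdhb, 3 Pcdhg and 0 Pcdha genes higher with Gdf11, against 18, 6 and 3, and 1 Pcdhb gene from D6 to D7, against 4. In CPM, the second count table gave cluster sums for Pcdha of 4.06 in D2, 5.31 in D3 and 3.68 in D6, for Pcdhb of 5.87 in D2, 11.5 in D3 and 53.8 in D7, and for Pcdhg of 52.3, 69.7, 77.5, 78.0 and 93.1 from D2 to D7G. Library totals without TMM gave 4.30 for Pcdha in D2 and 126 and 136 for Pcdhg in D3 and D7. Among called members, the rise of Pcdhb13 from D3 to D6 changed sign in the second count table and was not called there. In the table used here it rested on 11 counts in D6 against 1 in D3. Some log2 fold changes that were not called also changed sign. Library totals gave 0.0453 for Cdh3 from D2 to D3 and -0.0193 for Pcdhgc3 from D3 to D6. Leaving out 1 library gave -0.0903 to 0.0394 for Cdh3 from D2 to D3 (above 0 without D2 replicate 2, 0.0146, or D3 replicate 1), -0.158 (without D2 replicate 2) to 0.291 for Pcdh8 from D2 to D3, and -0.00390 (without D6 replicate 1) to 0.125 for Pcdhgc3 from D3 to D6. From D6 to D7 it gave -0.00506 (without D7 replicate 1) to 0.129 for Pcdh18, -0.248 to 0.208 (without D6 replicate 2) for Pcdhac2 and -0.215 to 0.00570 (without D7 replicate 2) for Pcdhb22. The cause was not tested. Of the other alternatives for named genes, 2085 kept direction and call, 47 lost and 9 gained a call.

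Deviations of same-numbered libraries correlated at -0.042 to 0.049, so no shift shared by replicate number was seen. Such correlations cannot show that same-numbered libraries came from unrelated cultures. With the replicate block 29, 35, 16 and 47 members were higher and 15, 16, 6 and 4 lower in the 4 comparisons, and 77 differed among groups. Genes with a few counts per library, such as Pcdhb9 and Pcdhb12 before D7, are limited by depth.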
